A study of Bos taurus with 44 samples.

Results

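The genes described here are 4 genes of antigen presentation by major histocompatibility complex (MHC) class I: B2M, BOLA-NC1, TAP1 and TAPBP. They were followed in the uterine lining of cattle. A probe was taken as a member where the array's annotation gave it exactly 1 of these symbols. This gave 6 of the 13824 probes of the array, for 4 of 8073 named genes: 1 probe each for B2M, TAP1 and TAPBP, and 3 for BOLA-NC1, numbered here 1 to 3 in the order of the table. A further 3 probes carried both BOLA and BOLA-NC1 as symbols; they are no members and are given beside them as shared probes 1 to 3. All 6 member probes had a value on all 44 arrays.

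MHC class I molecules show short peptides from inside the cell to T cells, and they also bind receptors of natural killer cells. The proteasome cuts the peptides, TAP1 and TAP2 form the pump that carries them into the endoplasmic reticulum, and TAPBP (tapasin) holds that pump beside an empty class I heavy chain. The loaded heavy chain reaches the cell surface only in a complex with the small subunit B2M (beta-2-microglobulin). BOLA-NC1 is annotated as a non-classical class I heavy chain of cattle. Interferons are known to raise the transcription of class I genes, and in ruminants the trophoblast (the outer cell layer of the conceptus) secretes interferon tau before implantation.

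Each array set 2 RNA samples against each other, 1 in the dye Cy3 and 1 in Cy5. The labels name the area of the uterine lining: caruncular tissue, where the ruminant placenta attaches, or intercaruncular tissue, which lies between the caruncles. Of the 4 groups, AI stands for artificial insemination and IVF-ET for the transfer of embryos fertilised in vitro. SCNT stands for cloning by nuclear transfer from a somatic cell, and CJ is a group to which the labels give the word cycle. The labels used here do not name breed, age or day of gestation. IVF-ET and AI were compared in both areas, on 10 arrays and with 5 animals per group in each. These arrays formed a closed loop in which each animal was hybridised once in each dye. In caruncular tissue, SCNT and AI met on 4 arrays of pooled RNA, with 2 pools per group and an unstated number of animals in a pool. In intercaruncular tissue, animals of SCNT (5) and AI (4) were hybridised with CJ animals (5), on 10 arrays per group. The AI animals of the IVF-ET loops carry a different code (IAT) from those set against CJ (IAJ), and AI animals are numbered anew in each set of arrays.

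The values are log2 ratios, and they give differences between samples but no absolute level of a gene. For the same reason the labelled tissue could not be checked against its markers. In bulk tissue, fewer cells of a type and less RNA per cell cannot be told apart. The labels leave the numerator of the ratio unnamed. Reading it as Cy5 over Cy3 is taken here as likely, because interferon-induced genes are then higher, and the oxytocin receptor gene OXTR lower, with AI or SCNT than with CJ, as is known for early ruminant pregnancy. Under the other reading every sign below turns. Since class I genes respond to interferon themselves, their direction against CJ is not independent of that choice. How far the probes moved together does not depend on it.

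In the gene table of the cattle assembly ARS-UCD2.0, TAP1, TAPBP and BOLA-NC1 share a chromosome, that of the MHC region, and B2M lies on another. TAP1 lies between PSMB8 and PSMB9, which encode immunoproteasome subunits, with TAP2 close by. BOLA-NC1 lies among other class I heavy-chain genes. Such genes resemble each other closely, and the files do not show which of them each BOLA-NC1 probe reads, so its values may include related heavy chains.

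The arrays with CJ set intercaruncular tissue of SCNT and of AI animals beside that of the CJ group. After SCNT, B2M, BOLA-NC1 probes 1 and 2 and TAP1 rose, whereas BOLA-NC1 probe 3 and TAPBP did not pass the test. B2M was 4.70-fold, BOLA-NC1 3.47-fold (probe 1) and 3.26-fold (probe 2), and TAP1 1.58-fold the level of CJ animals. In all, 4 of 6 member probes were higher and 0 lower, where 10.4% of all probes tested were higher and 11.3% lower (21.7% in either direction; adjusted p under 0.05 in limma). The 3 BOLA-NC1 probes share a gene and are not separate evidence. The median difference was 1.18 over the 6 member probes and 0.01 over all probes.

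B2M, the subunit that every class I molecule needs at the surface, was higher in SCNT than in CJ on 10 of 10 arrays. Its log2 ratios ran from 1.72 to 3.13 with a median of 2.12. Averaged over the arrays of each animal, the 5 SCNT animals were at 1.92, 2.60, 2.65, 1.93 and 2.08. The SCNT animals thus lay close together and far above 0. The fitted difference was 2.23 ± 0.33 (5 animals of SCNT and 5 of CJ, limma adjusted p = 4.4e-05). This SE comes from the joint fit of all arrays with CJ, those of AI animals included.

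BOLA-NC1 probe 1 was above 0 on 10 of 10 arrays, from 1.20 to 2.82 with a median of 1.63. The fitted difference was 1.79 ± 0.23 (limma adjusted p = 8.9e-06). Probe 2 also lay above 0 on 10 of 10 arrays, over a wider range of 0.57 to 2.81 with a median of 2.06, and differed by 1.71 ± 0.40 (limma adjusted p = 0.0033). Probe 3 behaved otherwise. Its ratios lay between -0.26 and 0.22, its difference was 0.02 ± 0.08, and the 95% interval of -0.15 to 0.19 excludes the differences that both other probes gave. The 3 shared probes all rose, by 0.88 ± 0.22, 1.87 ± 0.51 and 1.92 ± 0.29.

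TAP1, which pairs with TAP2 in the peptide pump, had ratios between 0.16 and 1.34 with a median of 0.61, above 0 on 10 of 10 arrays. The means of the SCNT animals were 0.19, 0.48, 0.46, 1.12 and 1.04. SCNT animals 4 and 5 were the high ones, and they were not the highest for B2M. The difference was 0.66 ± 0.13 (limma adjusted p = 0.0011). TAPBP, the tapasin gene, had animal means of 0.19, 0.50, -0.07, 0.21 and -0.11 and a difference of 0.14 ± 0.09 with a 95% interval of -0.05 to 0.33 (limma adjusted p = 0.32).

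In AI animals, B2M and BOLA-NC1 probes 1 and 2 rose against CJ too, and so did TAPBP, while TAP1 missed the threshold. That is 4 of 6 member probes higher and 0 lower, where 6.92% of all probes were higher and 8.08% lower (15% in either direction). For B2M and BOLA-NC1 probes 1 and 2, AI animal 3 was lower than the other 3 AI animals. This animal, which the labels name on 4 of the 10 arrays (on 2 of these it meets CJ animal 3, with the dyes swapped), weighs more in the fit than the other AI animals do. Each of the other AI animals is on 2 arrays, so this label might cover 2 animals, which cannot be told here. It was taken as 1 animal, as labelled, in the counts and levels below.

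For B2M the animal means were 2.03, 2.96, -0.32 and 2.58. Only AI animal 3 lay below 0, with array values of 0.06, -0.49, -0.23 and -0.64. The fitted difference was 1.51 ± 0.34 (4 AI and 5 CJ animals, limma adjusted p = 0.0037), and without AI animal 3 it was 2.50. The fit uses 1 correlation of 0.12 between arrays of the same animal, common to all probes. For B2M the fitted levels of the 4 AI animals spread widely (SD 1.38), so this SE and adjusted p may be too small. BOLA-NC1 probe 1 had means of 1.48, 1.65, 0.46 and 2.22 and a difference of 1.32 ± 0.24 (limma adjusted p = 0.00059), or 1.79 without AI animal 3. It was above 0 on 10 of 10 arrays, AI animal 3 included.

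BOLA-NC1 probe 2 had means of 1.91, 2.49, -0.71 and 2.78. AI animal 3 stood on the other side of 0 from the rest. The difference was 1.29 ± 0.41 (limma adjusted p = 0.037), and 2.36 without AI animal 3. The AI animals spread widely here too (SD of fitted levels 1.44), so the limit given for B2M also holds for this SE and adjusted p. This call did not hold without any 1 of AI animals 1, 2 or 4 or of CJ animals 1, 2, 4 or 5 (differences of 0.92 to 1.29, limma adjusted p of 0.071 to 0.24). Probe 3 again showed no difference that passed, at -0.08 ± 0.09 with a 95% interval of -0.25 to 0.10. Of the shared probes only the third rose (1.31 ± 0.30), with the others at 0.40 ± 0.22 and 0.77 ± 0.53.

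TAP1 had AI animal means of 0.53, 0.97, 0.05 and 0.21, with AI animal 2 highest and AI animal 3 lowest. Its difference of 0.39 ± 0.14 had a limma adjusted p of 0.067. It passed without AI animal 3, at 0.55 (limma adjusted p = 0.030), and without SCNT animal 4, which shares the fit, at 0.39 (0.043). It also passed with arrays scaled to equal median absolute deviation (adjusted p = 0.032) and with arrays taken as independent (0.046), over a range of 0.032 to 0.16 across 8 processing alternatives. TAPBP did not single out AI animal 3. Its AI means were 0.35, 0.50, 0.48 and 0.29, so AI animal 3 lay among the others, and the ratio was above 0 on 10 of 10 arrays (0.08 to 0.70). The difference was 0.42 ± 0.09 (limma adjusted p = 0.0038), a 1.33-fold level.

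Each animal's level was also estimated from all 20 arrays with CJ, relative to the mean of the CJ animals. For B2M the SCNT levels were 2.23 ± 0.23 (SD, n = 5), the AI levels 1.78 ± 1.38 (SD, n = 4) and the CJ levels 0.00 ± 0.29 (SD, n = 5). For B2M, BOLA-NC1 probes 1 and 2 and TAP1, every SCNT animal lay above every CJ animal, an arrangement that 4.57% of all probes showed. Every AI animal lay above every CJ animal for TAP1 and TAPBP, as for 2.8% of all probes. For B2M and BOLA-NC1 probes 1 and 2, 3 of 4 AI animals lay above every CJ animal, the exception being AI animal 3. The spread of CJ animals was largest for BOLA-NC1: 0.54 for probe 1 and 0.77 for probe 2 (SD, n = 5). The probes ordered the CJ animals differently, since CJ animal 1 was at 0.49 for probe 1 and -0.92 for probe 2, and CJ animal 3 at -0.39 and 0.66.

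**Figure D1:**
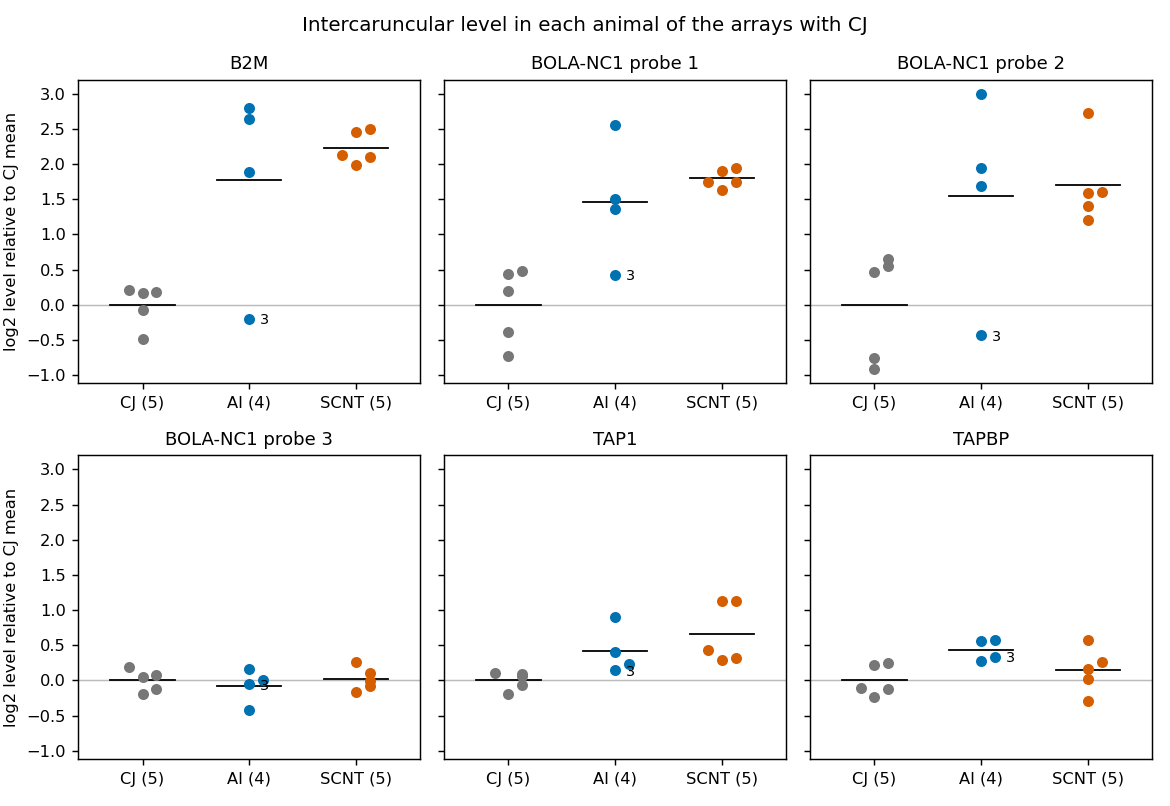
Log2 level of each member probe in each intercaruncular animal (1 point each; CJ 5, AI 4, SCNT 5) relative to the mean of the CJ animals, estimated with animal and dye as fixed effects; the line is the group mean and the label 3 marks AI animal 3. For B2M the SCNT animals sit between 1.99 and 2.50 and the CJ animals between -0.48 and 0.20, while AI animal 3 is at -0.20.

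AI animal 3 stood apart in the interferon-induced genes as well. MX1, an antiviral protein induced by interferon, was at levels of 4.22, 4.42, -0.30 and 4.19 in AI animals 1 to 4. ISG15, which interferon induces and which is conjugated to other proteins, was at 4.31, 5.53, -0.13 and 3.80. IRF1, a transcription factor that drives class I genes, was at 1.06, 1.02, 0.26 and 0.78, and OXTR at -3.64, -4.38, -1.20 and -2.59. AI animal 3 thus lay among the CJ animals for MX1 and ISG15. For IRF1 it was the lowest AI animal, but all 4 AI animals lay above every CJ animal. Its OXTR level was between those of the CJ animals and of the other AI animals.

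SCNT and AI intercaruncular tissue were compared through CJ. No member probe passed (0 of 6, where 0.282% of all probes did, 0.253% higher and 0.0289% lower). B2M differed by 0.72 ± 0.43 (95% interval -0.17 to 1.61, limma adjusted p = 0.79), and the value was -0.26 without AI animal 3. BOLA-NC1 probe 1 differed by 0.48 (95% interval -0.14 to 1.10), probe 2 by 0.41 (-0.66 to 1.49) and probe 3 by 0.10 (-0.12 to 0.32). TAP1 differed by 0.27 (95% interval -0.09 to 0.63). TAPBP had the smallest unadjusted p of the members and the only negative value, at -0.27 (95% interval -0.52 to -0.03, limma p = 0.031, adjusted p = 0.59). So the call of TAPBP in AI but not in SCNT animals, and that of TAP1 in SCNT but not in AI animals, are not shown to be differences between AI and SCNT.

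**Figure D2:**
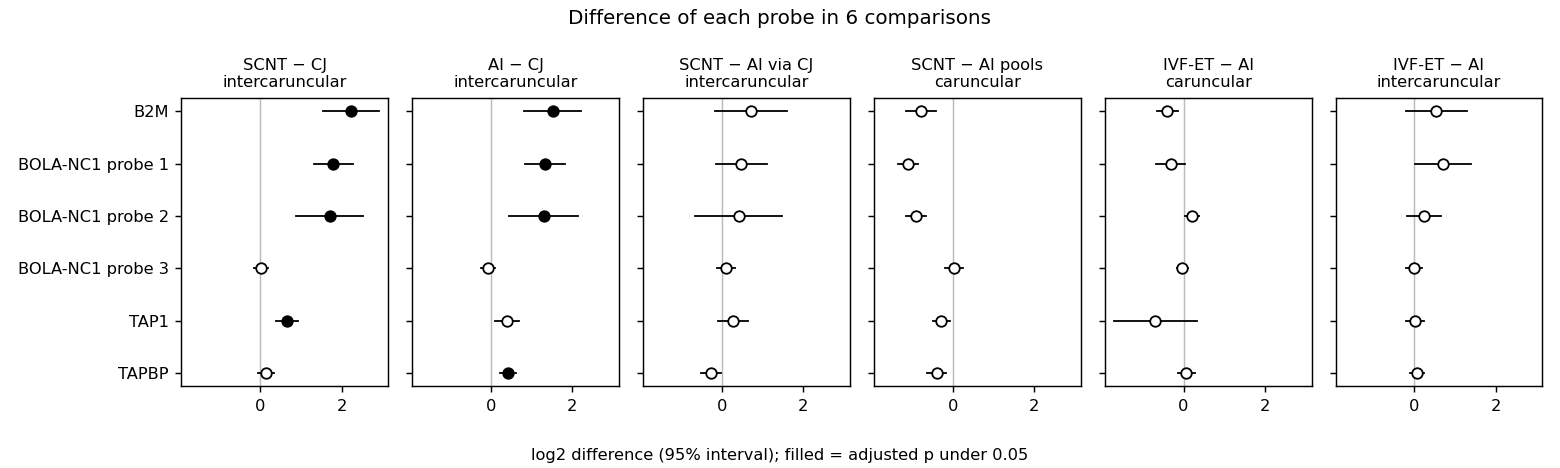
Fitted log2 difference of each member probe with its 95% interval in 6 comparisons, on 1 shared axis; filled points passed an adjusted p of 0.05. Filled points occur only in the comparisons with CJ, 4 in each, and BOLA-NC1 probe 3 lies near 0 in every panel.

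In the caruncular pools no member probe passed the test of SCNT against AI. All 4 arrays were below 0 for B2M, BOLA-NC1 probes 1 and 2, TAP1 and TAPBP, whereas BOLA-NC1 probe 3 was near 0, and no probe of the array passed with 2 pairs of pools (0 of 6 member probes; 0% of all probes in limma; 1744 probes, or 12.6%, and 5 of 6 member probes had an unadjusted p under 0.05). The median difference was -0.58 over the member probes and 0.00 over all probes.

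For B2M, SCNT pool 1 against AI pool 2 gave log2 ratios of -1.20 and -0.88 in the 2 dye orientations, and SCNT pool 2 against AI pool 1 gave -0.27 and -0.75. The first pair was lower than the second. The difference was -0.78 ± 0.14 (95% interval -1.14 to -0.42, limma adjusted p = 0.16), with pair means of -1.04 and -0.51. With 2 pairs, the SE and interval from limma draw on the variance of all probes. They do not show the spread between the pairs, here or for the other probes in the pools. BOLA-NC1 probe 1 was at -1.22 and -1.22 in the first pair and at -0.70 and -1.26 in the second, with a difference of -1.10 ± 0.10 (limma adjusted p = 0.075), a level 2.14-fold lower.

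BOLA-NC1 probe 2 was at -0.86 and -0.74 in the first pair and at -1.19 and -0.81 in the second (-0.90 ± 0.09, limma adjusted p = 0.10). Here the second pair was the lower one. Probe 3 stayed within -0.08 and 0.15 (0.03 ± 0.08, 95% interval -0.18 to 0.24). Shared probes 2 and 3 were below 0 on 4 of 4 arrays (-0.93 ± 0.08 and -1.12 ± 0.08), and shared probe 1 on 3 of 4 (-0.55 ± 0.25), with pair means of -0.01 and -1.08.

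TAP1 lay between -0.44 and -0.17 on the 4 arrays, a difference of -0.28 ± 0.08 (limma adjusted p = 0.29). TAPBP, which loads the peptide, lay between -0.54 and -0.29, a difference of -0.39 ± 0.09 (limma adjusted p = 0.23). Both pairs thus stood on the same side of 0 for each of these 5 probes. The count of member probes past the threshold depended on how the 4 arrays were treated. It was 3 with the first spot of each probe only, 1 with arrays centred on their median and 2 with the 4 arrays fitted with a dye term, where 94, 16 and 257 probes of the whole array passed.

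**Figure D3:**
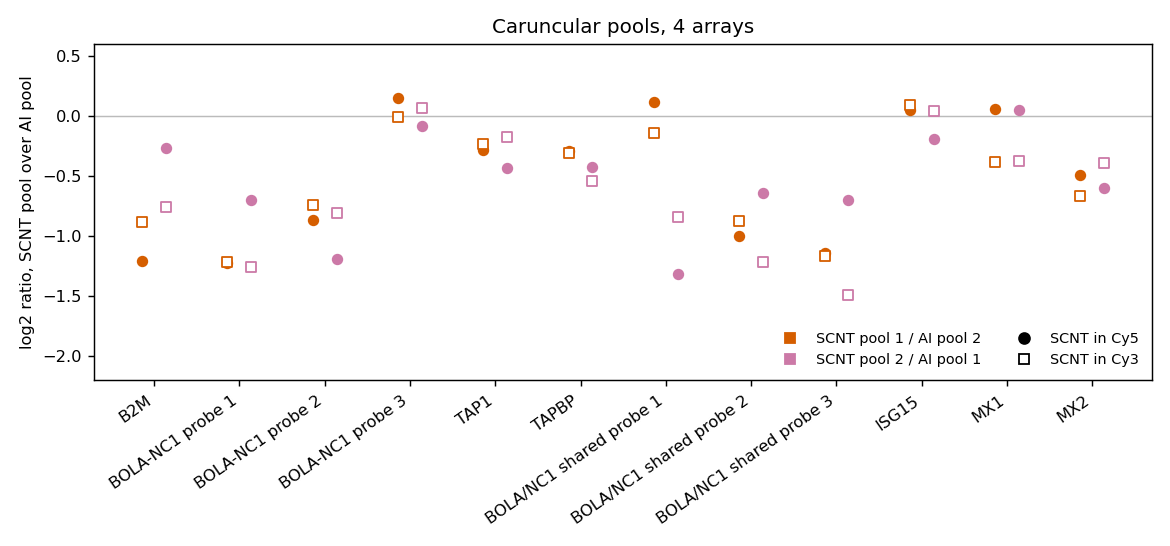
Log2 ratio of SCNT over AI on each of the 4 arrays of caruncular pools for the member probes, the shared BOLA and BOLA-NC1 probes, ISG15, MX1 and MX2; colour gives the pair of pools and the symbol the dye of the SCNT pool. B2M ranges from -1.20 to -0.27 and BOLA-NC1 probe 3 from -0.08 to 0.15, while ISG15 ranges from -0.19 to 0.09.

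The interferon-induced genes did not share this shift evenly. In the pools ISG15 was at 0.00 ± 0.09, MX1 at -0.16 ± 0.08 and MX2 at -0.54 ± 0.08, and the median of the 21 measured interferon-stimulated genes was -0.10, with 7 of 21 above 0. IRF1 was at -0.36 ± 0.11 and below 0 on 4 of 4 arrays. None of these passed the test, and no marker of another cell type did in the pools. Of 10 measured trophoblast markers 8 were above 0 (median 0.70, highest 2.24). The lowest, PTI at -0.91, had the smallest p of that list (limma adjusted p = 0.075). Whether PTI marks trophoblast in this tissue was not tested. Of 9 epithelial markers 0 were above 0 (median -0.34). Of 12 pan-leukocyte markers 2 were above 0 (median -0.13), and of 9 T and NK cell markers 1 was (median -0.09). The median was 0.14 over 7 stromal fibroblast markers, 0.00 over 10 macrophage, 0.05 over 4 B cell and -0.04 over 6 endothelial markers. The part of these cells in the class I values was not tested.

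The IVF-ET loops asked how the uterine lining after transfer of an embryo made in vitro differed from that after AI. In caruncular tissue no member probe passed the test (0 of 6, where 0.0217% of all probes did). B2M was nonetheless on 1 side throughout: 10 of 10 arrays were below 0, from -1.11 to -0.01 with a median of -0.30. The difference was -0.40 ± 0.12 (5 animals per group, 95% interval -0.65 to -0.15, limma p = 0.0048, adjusted p = 0.40). B2M levels of the animals overlapped between the groups, at 0.00 ± 0.45 in AI and -0.40 ± 0.21 in IVF-ET animals (SD, n = 5 each).

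The heavy-chain probes did not follow B2M together. BOLA-NC1 probe 1 was below 0 on 8 of 10 arrays (-0.32 ± 0.16, 95% interval -0.67 to 0.03) and probe 2 above 0 on 8 of 10 (0.21 ± 0.08, 95% interval 0.03 to 0.38, adjusted p = 0.48). Probe 3 (-0.03 ± 0.06) and TAPBP (0.07 ± 0.10) were near 0. TAP1 had the largest fitted value of the members, at -0.69 ± 0.47, and this rested on 1 array. That array, of IVF-ET animal 3 and AI animal 5, gave -5.24 (-4.74 and -5.73 at its 2 spots), while the other 9 arrays ranged from -0.69 to 0.21. Without it the TAP1 difference was -0.20 ± 0.08 (limma adjusted p = 0.57). The other array of each of these animals gave 0.21 and -0.06.

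In intercaruncular tissue again no member probe passed (0 of 6, where 0.00724% of all probes did). The values of B2M and BOLA-NC1 probes 1 and 2 scattered far more here than in the caruncles, while those of TAPBP did not. B2M ranged from -2.12 to 2.62 over the 10 arrays with a median of 0.46, a difference of 0.54 ± 0.35 (95% interval -0.20 to 1.29). BOLA-NC1 probe 1 differed by 0.70 ± 0.32 (95% interval 0.01 to 1.40, limma p = 0.049, adjusted p = 0.54) and probe 2 by 0.24 ± 0.19. Arrays, not animals, are the replicates behind the SE, intervals and p-values of this loop. The correlation between arrays of the same animal was estimated at 0. TAP1 was at 0.01 (95% interval -0.21 to 0.24), TAPBP at 0.07 (-0.09 to 0.24) and probe 3 at 0.00 (-0.19 to 0.19). For TAP1 this interval excludes a difference as large as the 0.66 of SCNT against CJ, but that contrast has another reference group. In SCNT against AI through CJ, TAP1 was at 0.27 (95% interval -0.09 to 0.63).

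The fitted levels of animals of the same group lay far apart. Relative to the mean of the AI animals, B2M was at -0.71, -0.06, -1.41, 2.40 and -0.21 in AI animals 1 to 5 and at -0.30, -1.19, 0.80, 2.84 and 0.57 in IVF-ET animals 1 to 5. AI animal 4 and IVF-ET animal 4 were thus well above all others. The same animals were highest for BOLA-NC1 probe 1 (2.81 and 3.22), probe 2 (1.00 and 1.23) and MX1 (4.58 and 4.16), and lowest for OXTR (-1.71 and -1.49). Each loop has as many arrays as fitted terms, so these levels carry no error estimate, and array error cannot be told apart from differences between animals. The correlation estimated between arrays of the same animal was 0 in this loop. An error on 1 array spreads to all animals, as it does for caruncular TAP1.

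All 5 IVF-ET animals and 3 AI animals were measured in both areas, which allows the high animals to be followed. In the caruncular loop IVF-ET animal 4 was at -0.60 for B2M, and the AI animal numbered 4 in the intercaruncular loop, which is animal 2 in the caruncular one, was at -0.43. The animals that stood high in intercaruncular tissue were therefore among the lower ones of their groups in caruncular tissue. The SD of the B2M level was 1.44 in AI and 1.51 in IVF-ET animals in the intercaruncular area, against 0.45 and 0.21 in the caruncular area (n = 5 each); this difference in spread was not tested.

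**Figure D4:**
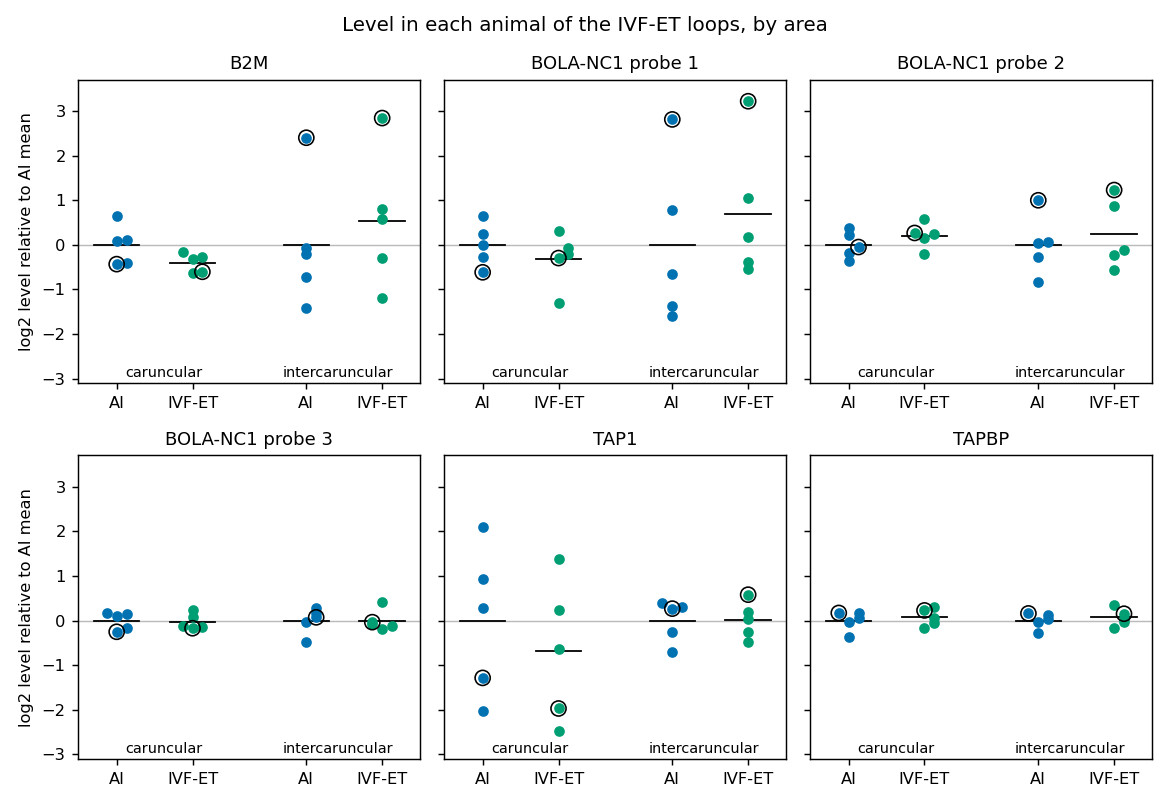
Log2 level of each member probe in each animal of the caruncular and intercaruncular IVF-ET loops, relative to the mean of the AI animals of that area; points are animals, lines group means, and rings mark IVF-ET animal 4 and the AI animal that is number 4 in the intercaruncular and number 2 in the caruncular loop. For B2M the ringed animals are at 2.40 and 2.84 in the intercaruncular area and at -0.43 and -0.60 in the caruncular area; the wide caruncular spread of TAP1 comes from 1 array at -5.24.

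The difference between the areas in the IVF-ET effect was tested in 1 fit over both loops. With an estimated correlation of 0.01 between arrays of the same animal, this fit treats arrays nearly as independent replicates. No member probe passed (0 of 6, where 0.00723% of all probes did). The caruncular minus intercaruncular value was -1.02 ± 0.39 for BOLA-NC1 probe 1 (95% interval -1.83 to -0.20, limma p = 0.017, adjusted p = 0.60) and -0.94 ± 0.40 for B2M (-1.78 to -0.10, limma p = 0.030, adjusted p = 0.61). TAP1 was at -0.70 ± 0.45, and at -0.22 without the array at -5.24. BOLA-NC1 probes 2 and 3 and TAPBP lay between -0.03 and 0.00.

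Over all 44 arrays, the members were compared with every other gene by an uncentred correlation of the log2 ratios, which does not change with the dye reading. Because it is uncentred, a shift that 2 genes share on all arrays raises it even where they do not vary together. These values are descriptions: arrays share animals, and the comparisons with CJ weigh most. B2M was most like MX1 (0.95), RSAD2 (0.95), IFIT5 (0.95), IFI16 (0.95) and IFI6 (0.94), all genes known to be induced by interferon. BOLA-NC1 probe 1 was most like IFI6 (0.87), TGM2, ZNFX1, RSAD2 and MX1. Probe 2 was most like the complement gene C1R (0.91), the leukocyte gene ARHGDIB, IFI16, DKK1 and MX1.

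TAP1 was most like DIRAS3 (0.93), TMEM42, NUDT12, SLCO2B1 and MYL7, and this list rested on the array at -5.24. Without that array the closest genes were TGM2 (0.83), PRODH, SMG1, MX2 (0.81) and ABHD16A, and DIRAS3 fell to 0.72. The likeness of TAP1 to B2M was 0.44 with the array and 0.77 without it. TAPBP was most like CD74 (0.85), the invariant chain of MHC class II, followed by SSBP3, CREBBP, PPL and TMEM132A, and its likeness to B2M was 0.38. Probe 3 of BOLA-NC1 was most like CAV3 (0.75) and had a likeness of 0.06 to B2M.

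B2M and BOLA-NC1 probe 1 had a likeness of 0.90, B2M and probe 2 of 0.88, and probes 1 and 2 of 0.75. The likeness of B2M to MX1 was 0.98 on the SCNT and 0.97 on the AI arrays with CJ, 0.93 in the intercaruncular and 0.80 in the caruncular IVF-ET loop (10 arrays each), and 0.58 on the 4 arrays of pools. On the SCNT arrays both genes were above 0 on 10 of 10 arrays, so their shared shift alone raises the likeness there. In the intercaruncular IVF-ET loop, where no member probe passed, the ratios of B2M went with those of MX1. There the arrays with the largest MX1 ratios (from -4.10 to 4.13) weigh most.

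**Figure D5:**
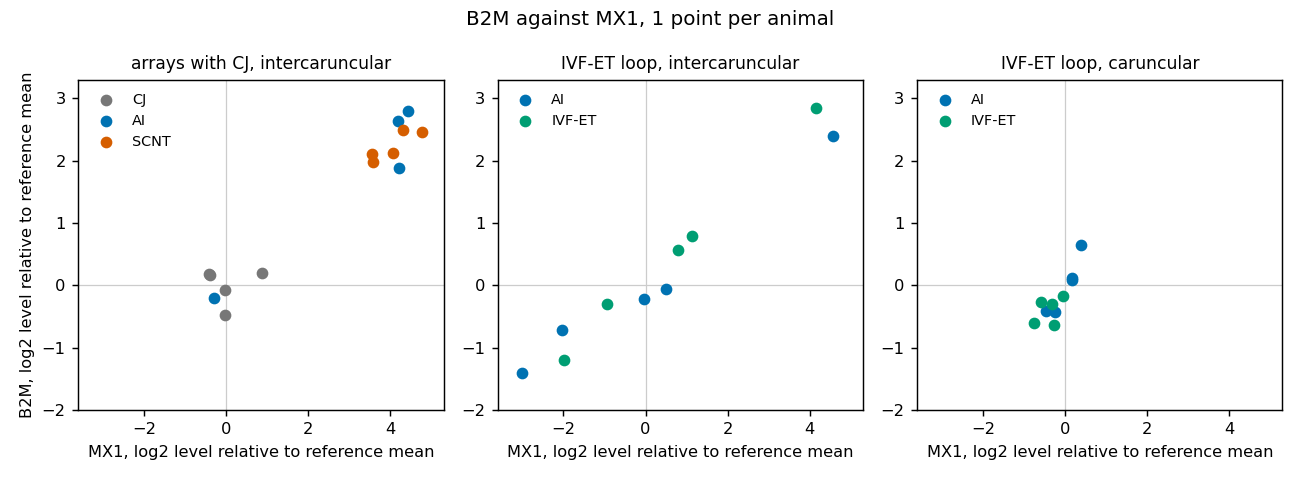
B2M against MX1 log2 level, 1 point per animal, in the arrays with CJ (relative to the CJ mean) and in the intercaruncular and caruncular IVF-ET loops (relative to the AI mean). AI animal 3 of the arrays with CJ (MX1 -0.30, B2M -0.20) lies among the CJ animals, and the high animals of the intercaruncular loop are at MX1 4.58 and 4.16.

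How closely the 2 spots of a probe matched describes precision within an array, since both spots share 1 hybridisation. Their correlation also rises with the range of a probe's ratios. Across the 44 arrays the spots correlated at 1.00 for B2M, 0.99 for BOLA-NC1 probe 1, 0.91 for probe 2, 0.95 for TAP1 and 0.81 for TAPBP, where the median over all probes was 0.73. For BOLA-NC1 probe 3 it was 0.54, and the size of its ratios (root mean square 0.20) was at the 6.30 percentile of all probes. Its ratios were thus small over the 44 arrays as a whole, though single arrays reached -0.85 (AI against CJ) and 0.43 (intercaruncular IVF-ET loop). The spots of probe 3 correlated less than those of most probes. Their median absolute difference of 0.10 was larger than for B2M (0.08). It was no larger than for BOLA-NC1 probe 1 (0.10), probe 2 (0.12), TAPBP (0.13) or TAP1 (0.20).

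Of 25 other genes of class I presentation, 16 were measured, and none of them passed in the pools, the IVF-ET loops, the area difference or SCNT against AI. Of all probes, 10.4% rose and 11.3% fell in SCNT against CJ, and 6.92% rose and 8.08% fell in AI against CJ. Beside these shares, 5 of the 16 rose and 6 fell in SCNT (median 0.29), and 5 rose and 6 fell in AI (median 0.18). Those that rose act on the peptides. PSMB8 and PSMB10, which replace standard proteasome subunits in the immunoproteasome, rose by 0.55 ± 0.13 and 0.63 ± 0.16 in SCNT and by 0.48 ± 0.13 and 0.50 ± 0.17 in AI. PSME1, a proteasome activator subunit, rose by 0.67 ± 0.14 and 0.48 ± 0.14, and CTSS, a protease of the endosome, by 0.98 ± 0.15 and 0.91 ± 0.15. PSMB9, the neighbour of TAP1, rose by 1.10 ± 0.34 in AI and was at 0.88 ± 0.33 in SCNT (limma adjusted p = 0.061). TAP2, the partner of TAP1 in the pump, rose by 0.39 ± 0.12 in SCNT and was at 0.32 ± 0.12 in AI (limma adjusted p = 0.090).

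Those that fell are general factors of the endoplasmic reticulum, which serve many secreted and membrane proteins. The translocon subunits SEC61B, SEC61A1 and SEC61G were at -1.08, -0.93 and -0.86 in SCNT and at -0.89, -0.66 and -0.88 in AI. The chaperone HSPA5, and PDIA3 and CALR, which belong to the complex that loads class I, were at -1.02, -0.82 and -0.66 in SCNT and at -0.83, -0.67 and -0.64 in AI. The class I transactivator NLRC5 did not pass (0.33 ± 0.17 and -0.01 ± 0.17), and neither did RFX5, PSME2 or the probe named BOLA alone (0.34 ± 0.41 and 0.71 ± 0.42). Outside this list, the measured neighbours of BOLA-NC1 on its chromosome differed. LOC512672 rose by 1.14 ± 0.18 in SCNT and 0.66 ± 0.18 in AI. GNL1 fell (-0.30 ± 0.08 and -0.36 ± 0.08), and TRIM39 did not pass (-0.01 ± 0.09 and -0.12 ± 0.09). Of 18 class I-like molecules and class I receptors, 5 were measured (CD1E, FCGRT, KLRD1, NCR1 and NCR3), and 0 of these passed in any comparison; against CJ their differences lay between -0.14 and 0.11.

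All 21 measured interferon-stimulated genes rose in SCNT (median 1.77) and 20 of 21 in AI (median 1.11) against CJ, and none passed elsewhere. Markers of other cell types were called in the same comparisons. Over all probes, 10.4% rose and 11.3% fell in SCNT against CJ, and the T and NK cell count was near that share. In SCNT against CJ, 3 of 12 pan-leukocyte markers rose and 1 fell (median 0.10), 3 of 10 macrophage markers rose (0.09), 1 of 9 T and NK cell markers rose (0.17) and 0 of 4 B cell markers passed (0.04). Of 9 epithelial markers 4 rose and 1 fell (median 0.38), 6 of 7 stromal fibroblast markers fell (-1.62), 2 of 6 endothelial markers rose and 1 fell (-0.05), and 4 of 10 trophoblast markers rose (0.42).

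In AI against CJ, 4 of 12 pan-leukocyte markers rose (median 0.20), 4 of 10 macrophage markers (0.17), 0 of 9 T and NK cell markers (0.14) and 0 of 4 B cell markers (-0.02). Of 9 epithelial markers 2 rose (0.26), 3 of 7 stromal fibroblast markers fell (-0.94), 1 of 6 endothelial markers fell (0.02) and 0 of 10 trophoblast markers passed (0.06). Over all probes, 6.92% rose and 8.08% fell in AI against CJ. The part of these cells in the class I differences was not tested.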

How the data were processed

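The authors deposited log2 ratios of the 2 dyes, 1 per spot, for 44 arrays. Base 2 was tested on the 331 values below -4. Per the labels' protocols, RNA was extracted from frozen tissue, reverse transcribed with oligo-dT and dye-labelled. How the spots were background-corrected and normalized is not given in the sources used here. The median of an array was -0.0164 to 0.0124. The 2 adjacent spots of each probe were averaged with no further normalization. Symbols came from the platform annotation, updated through Entrez identifiers: 8645 probes had 1 symbol, 105 several and 5074 none.

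Each probe with values on at least 80% of the arrays was fitted with limma 3.58.1 (R 4.3.3) by generalised least squares. It included the dye and a common correlation between arrays of the same animal, estimated at 0.13 (caruncular loop), 0 (intercaruncular loop), 0.01 (both loops) and 0.12 (arrays with CJ). Dye-swapped pairs of pools were averaged and tested against 0. Benjamini-Hochberg adjustment ran over all probes tested. Errors are moderated SE from limma unless given as SD, and few animals or pools limit their precision. Moderation draws on the variance of all probes, so these SE are not the spread between animals or pools. The script was tested on simulated data. All member probes, the measured genes of 2 class I lists, ISG15, MX1, MX2 and IRF1, and the 5 genes most like each member were named by rule. Members and lists were chosen with earlier results of these data known.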

Additional observations from a re-analysis of the deposited data

Results flagged for a closer look

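Of 42 groups of 4 or 5 animals, 2 held an animal whose level lay far from the rest of its group by Dixon's criterion, where chance gives about 1 group in 20. BOLA-NC1 probe 2 was at 2.73 in SCNT animal 2 of the arrays with CJ, while the other SCNT animals lay between 1.21 and 1.60. BOLA-NC1 probe 3 was at 0.41 in IVF-ET animal 3 of the intercaruncular loop, while the other IVF-ET animals lay between -0.18 and -0.04. Neither decides a call: without SCNT animal 2 or any other 1 animal, the count of member probes higher in SCNT than in CJ stayed at 4, and probe 3 passed in no comparison.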

How the results depend on the processing

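Of 828 values of single members under other settings or without 1 animal or pool pair, 809 kept their direction and side of the threshold, or were not called in either case; 9 lost and 10 gained a call, and 0 called values reversed. The count of member probes past the threshold was 4 to 4 in SCNT against CJ and 3 to 5 in AI against CJ without 1 animal, and 0 in the IVF-ET comparisons, their area difference and SCNT against AI through CJ. In the pools it was 0, but 3 with the first spot only, 1 with arrays centred on their median and 2 with 4 arrays and a dye term. Without the replicate animals in turn, BOLA-NC1 probe 2 in AI against CJ lay between 0.92 and 2.36. It also lost its call with the first spot only (1.26) and with AI animal 3 taken as 2 animals (1.15).

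Over all probes, the pools gave 0 calls, against 94 (first spot), 2 (second spot), 16 (median centring), 1 (scaling to equal median absolute deviation) and 257 (4 arrays with a dye term). The caruncular IVF-ET loop gave 3 calls, and 0 with the first or the second spot, the scaling, no dye term or the array at -5.24 left out, an alternative chosen after seeing the data. The intercaruncular loop gave 1, and 0 with the first spot or the scaling and 2 with no dye term. The area difference gave 1, and 0 with the second spot or the scaling. Without 1 animal, the counts were 0 to 2 in the caruncular loop, 0 to 0 in the intercaruncular loop, 0 to 2 for the area difference, 1312 to 2343 in AI against CJ and 8 to 53 in SCNT against AI through CJ. The causes were not tested. The arrays' replicate numbers only follow their order and pair nothing. The area difference was also fitted in a paired form, with 1 block per animal linking the areas through the animals measured in both: 0 member probes and 1 of all probes passed, and B2M was at -0.94 (limma adjusted p = 0.59).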
